A study of Mus musculus with 9 samples.

Results

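The genes described here move, store and regulate iron in mammalian cells: they are Tfrc, Tfr2 and Slc11a2 for uptake, Fth1 and Ftl1 for storage, Slc40a1 and Cp for export and oxidation, Hamp and Hfe for control of export, and Hmox1 for the release of iron from haem. All 10 genes were on the array, and each was taken through the probes whose platform annotation gave its symbol and no other. This gave 11 probes of the 23040 on the array, and 10 of the 15096 genes that such probes measured, with a pair of probes for Tfrc. The arrays compared RNA of SJL/J and C57BL/6J, both inbred mouse strains, in whole brain, kidney and liver of males aged 8 weeks. RNA of 5 mice of a strain was pooled for each tissue, 20 ug went into each labelling, and both pools of a tissue were hybridised together on 3 arrays. SJL/J RNA carried Alexa Fluor 647 and C57BL/6J RNA carried Alexa Fluor 555 on all 9 arrays. The labels name no treatment, allele or transgene in either strain.

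Each deposited value is a log ratio of one strain over the other, so it shows how the strains differ at a probe and not how abundant an mRNA is in a tissue. The values were read as log2, on which 1 is a doubling, and as likely SJL/J over C57BL/6J. Neither the base nor the direction is stated in the sources used here. Nnt, which carries a known deletion in C57BL/6J, was above 0 on 9 of 9 arrays. The 3 arrays of a tissue are repeats of a single pair of pools. SDs and p-values below therefore measure the spread between arrays and not between mice. The exception is the test of a ratio shared by the tissues, whose p-values measure the spread between tissue means, also not between mice. A gene-specific dye effect cannot be told apart from a strain difference. In bulk tissue, fewer cells of a type and less RNA per cell cannot be told apart either. Arrays of kidney correlated at 0.778 to 0.787 with each other over all probes and those of liver at 0.766 to 0.793, against 0.522 to 0.765 in brain. Brain replicate 3 stood apart: it correlated at 0.522 and 0.570 with the other brain arrays, below its 0.584 to 0.627 with the kidney arrays. The channel 1 tissue label of 6 arrays read brain although their titles and channel 2 labels named kidney or liver, and the titles were followed. The tissues could not be checked by marker levels, since only ratios were used here.

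Iron circulates bound to transferrin, and most cells take it up when transferrin receptor 1, the product of Tfrc, carries the complex inside. Cells store spare iron in shells of ferritin heavy and light chains and let it out through ferroportin, the product of Slc40a1, which is the single known iron exporter of mammals. The liver hormone hepcidin, made from Hamp, binds ferroportin and has it degraded, and so sets how much iron enters plasma. Tfrc and ferritin mRNAs are themselves under the control of iron regulatory proteins, which stabilise Tfrc mRNA and block ferritin translation when iron is scarce, so that ferritin protein can move without its mRNA.

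The stretch of DNA just upstream of Hamp is printed because hepcidin is the hub of the system and because the BMP and IL-6 lists described further down act through it. It is the sequence of the 250 bases before the Hamp start in RefSeq, GRCm38.p6, chr7:30944030-30944279, minus strand, with capitals marking GGCGCC, the letters of the BMP-responsive element, at -109 to -104, and TTCNNNGAA, the letters bound by STAT factors, at -97 to -89.
Hamp: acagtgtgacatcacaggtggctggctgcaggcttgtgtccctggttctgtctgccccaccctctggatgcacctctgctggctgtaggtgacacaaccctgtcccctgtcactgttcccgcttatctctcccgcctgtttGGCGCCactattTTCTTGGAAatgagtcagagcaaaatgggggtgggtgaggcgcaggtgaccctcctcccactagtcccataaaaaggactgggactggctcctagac
Both strands were searched, and each of these motifs reads the same on both. Of 32841 RefSeq promoters of 300 bases, 11.9% held GGCGCC, 8.3% held TTCNNNGAA and 0.646% held both, and the 2 motifs do not overlap in Hamp. Of the 10 genes, 7 had a promoter entry (Slc40a1, Slc11a2 and Hmox1 had none), and among the 7 the only other match was GGCGCC in 1 of the Tfrc promoters, at -89 to -84. A match is a match of letters and not evidence of binding.

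Liver held the most changes among the 11 probes, with 3 higher and 3 lower in SJL/J, against 4 lower and 0 higher in brain and 1 higher and 2 lower in kidney. A probe was called when its limma p-value, adjusted by Benjamini and Hochberg over all 23040 probes, was below 0.05. Over all probes, 12.8% were called higher and 12.4% lower in liver, 10.4% and 9.87% in brain, and 14.5% and 14.5% in kidney. At an unadjusted p below 0.05, 0 of the 11 were higher in brain and 5 lower. The 11 probes had medians of -0.35 (brain), -0.15 (kidney) and 0.09 (liver), beside 0.01, 0.02 and 0.01 over all probes. The 2 Tfrc probes carried 2 of the 4 lower calls in brain and took opposite calls in liver.

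**Figure D1:**
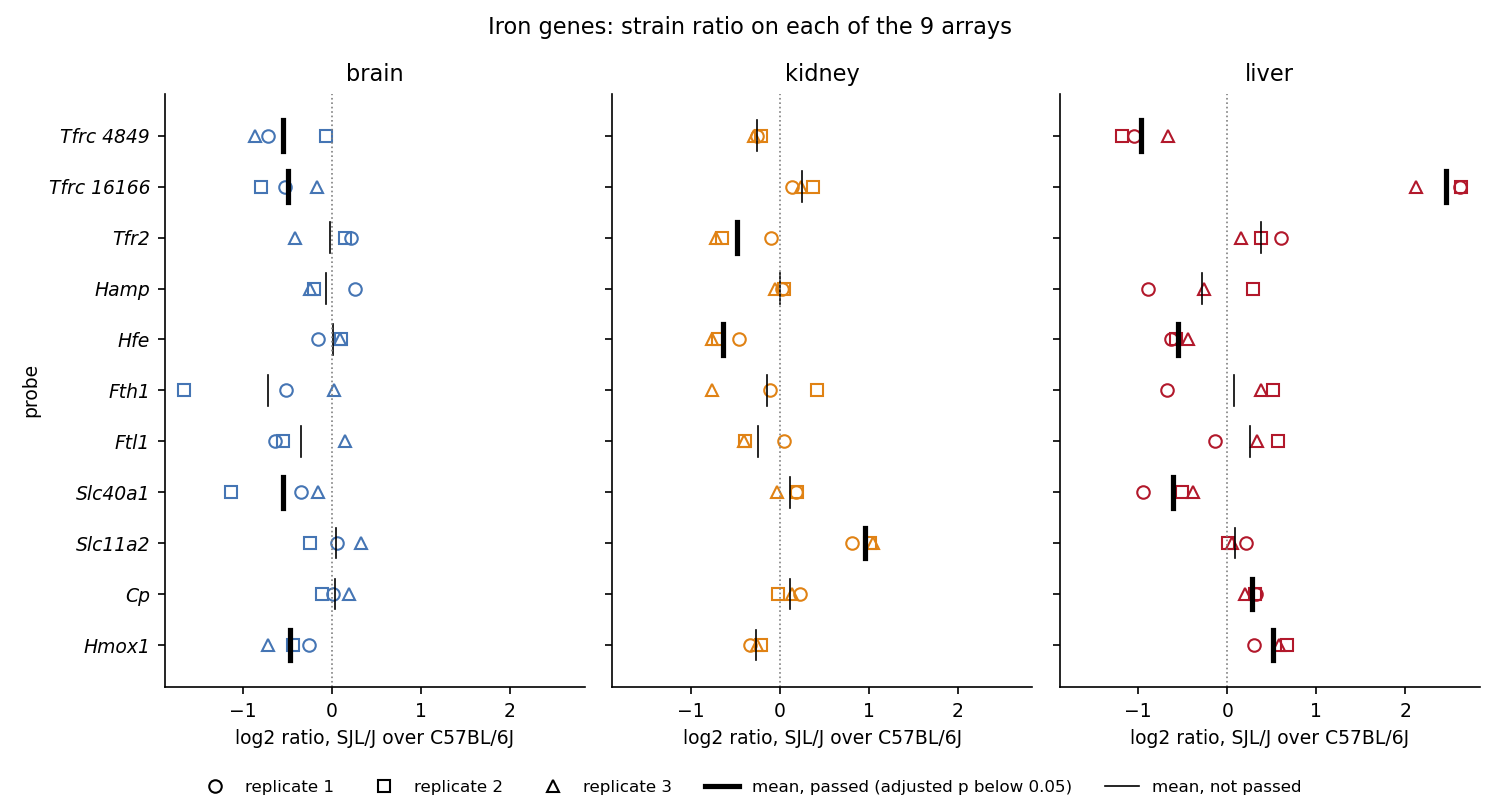
Log2 strain ratio (likely SJL/J over C57BL/6J) of the 11 probes on each array, 1 point per array, and a bar at each tissue's mean. Slc11a2 sits high on the 3 kidney arrays alone, Hmox1 lies above 0 on the liver arrays and below 0 on the others, and the 2 Tfrc probes part in liver at -0.97 and 2.45.

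Tfrc, the main cellular gateway for transferrin-bound iron, was lower in SJL/J brain by both of its probes, but in liver one probe read lower and the other higher. Probe 4849 read -0.72, -0.07 and -0.87 on the brain arrays, -0.26, -0.21 and -0.29 on the kidney arrays and -1.05, -1.19 and -0.66 on the liver arrays. Probe 16166 read -0.52, -0.80 and -0.17 in brain, 0.14, 0.37 and 0.25 in kidney and 2.62, 2.62 and 2.12 in liver. The probes overlapped in brain and not in kidney or liver, where all 3 values of one were below 0 and all 3 of the other above it. Probe 4849 had a mean of -0.97 ± 0.27 (SD, n = 3) in liver, a 1.95-fold difference (adjusted p = 0.00125, limma), and probe 16166 a mean of 2.45 ± 0.29 (adjusted p = 1.64e-06). In brain the means were -0.55 ± 0.42 (adjusted p = 0.0261) and -0.50 ± 0.31 (adjusted p = 0.0269). In kidney they were -0.25 ± 0.04 and 0.25 ± 0.12, neither of them called (adjusted p = 0.232 and 0.185).

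The liver value of probe 16166 was shared by the spots beside it. Taken in runs of 24 consecutive probe numbers, called lines here, its line had a median of 2.40 in liver and a range of -0.19 to 4.22, and Tfrc ranked 10 of 24. The same line had medians of 0.07 in brain and 0.17 in kidney. Probe 4849 lay in a line whose medians were -0.04 in brain and -0.02 in liver, and it was the lowest of its 24 spots in both tissues. With the medians of lines and of positions in a line removed from each array, probe 16166 fell to 0.08 ± 0.17 in liver (adjusted p = 0.592), and probe 4849 kept its lower call there. The mean of the 2 probes changed sign with that step: it was 0.74 ± 0.04 as deposited (adjusted p = 9.93e-05) and -0.44 ± 0.03 with medians removed (adjusted p = 0.00403). Without brain replicate 1 the brain call was lost for both probes, at -0.47 (adjusted p = 0.128) and -0.49 (adjusted p = 0.0973). It was also lost for probe 4849 without brain replicate 3 (-0.40, adjusted p = 0.113) and for probe 16166 without brain replicate 2 (-0.35, adjusted p = 0.182). With each tissue fitted on its own arrays neither probe was called in brain (adjusted p = 0.129 for 4849 and 0.113 for 16166, limma).

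**Figure D2:**
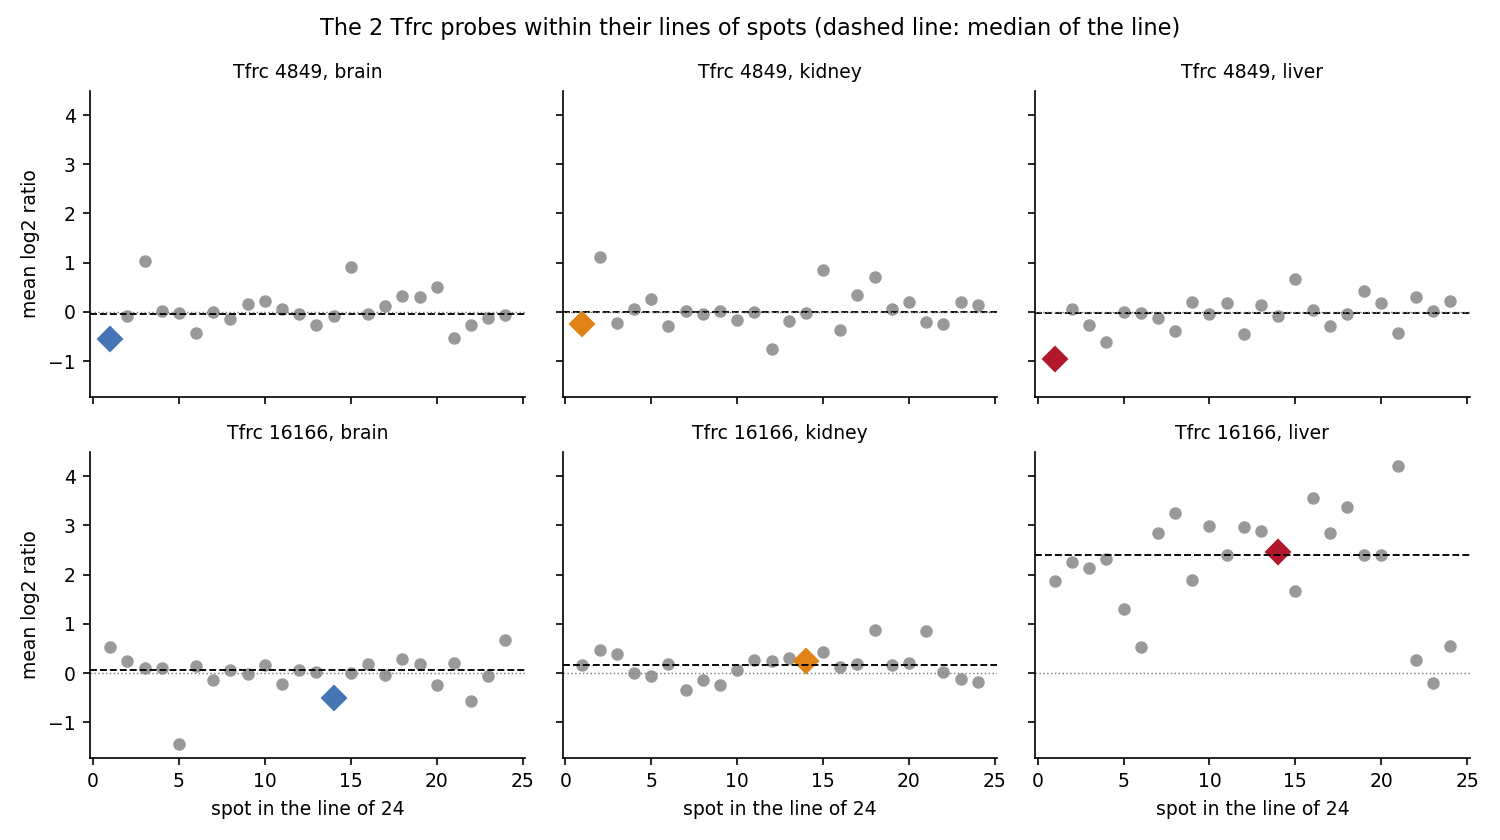
Mean log2 strain ratio per tissue of the 24 spots in the line of each Tfrc probe, in probe order, with the Tfrc spot marked. In liver the line of probe 16166 is raised as a whole, with a median of 2.40 and Tfrc at 2.45, whereas probe 4849 at -0.97 is the lowest spot of a line with a median of -0.02.

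Tfr2, the second transferrin receptor, senses transferrin saturation in hepatocytes, and its probe was lower in SJL/J kidney and not called in the other tissues. It read -0.10, -0.64 and -0.71 in kidney, 0.60, 0.38 and 0.16 in liver and 0.22, 0.15 and -0.42 in brain. All kidney values were below 0 and all liver values above it, without overlap, and the brain values spanned both. The kidney mean was -0.48 ± 0.34 (SD, n = 3, adjusted p = 0.0399, limma), and the liver mean 0.38 ± 0.22 (adjusted p = 0.0980) had an interval of 0.04 to 0.73. The median of its line in liver was -0.30, and with medians removed the liver ratio was called at 0.69 (adjusted p = 0.0195). The kidney call was lost without kidney replicate 2 (-0.40, adjusted p = 0.191), kidney replicate 3 (-0.37, adjusted p = 0.218) or liver replicate 2 (-0.48, adjusted p = 0.0553). It was also lost with each tissue fitted on its own arrays (adjusted p = 0.0513, limma).

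Slc11a2 encodes DMT1, which moves ferrous iron across the gut brush border and out of endosomes after transferrin uptake, and it was higher in SJL/J kidney. The kidney arrays gave 0.82, 1.01 and 1.05, the brain arrays 0.06, -0.25 and 0.32, and the liver arrays 0.21, 0.01 and 0.05. The kidney values lay above all 6 others. The kidney mean of 0.96 ± 0.13 (SD, n = 3) was a 1.95-fold difference with a 95% interval of 0.71 to 1.21 (adjusted p = 2.17e-04, limma). Brain and liver had means of 0.04 ± 0.29 and 0.09 ± 0.11 (adjusted p = 0.827 and 0.588), with intervals of -0.21 to 0.29 and -0.16 to 0.34. The probe was the highest of the 24 spots in its line in kidney, where the line's median was 0.10, and with medians removed it stood at 0.90 (adjusted p = 3.15e-04). Over the 19 other settings run it ranged from 0.79 to 1.03 and was called in each.

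The ferritin chains, which form the shell that holds stored iron, gave no call in any tissue. Fth1, the heavy chain that oxidises iron on entry, read -0.52, -1.67 and 0.02 in brain, -0.10, 0.42 and -0.76 in kidney and -0.67, 0.52 and 0.38 in liver. Ftl1, the light chain that aids the mineral core, read -0.64, -0.55 and 0.14 in brain, 0.05, -0.39 and -0.40 in kidney and -0.14, 0.57 and 0.33 in liver. As deposited, both genes spanned 0 in every tissue, and brain replicate 3 was the highest brain array for both. The SD of Fth1 was 0.86 in brain, 0.59 in kidney and 0.65 in liver, against 0.04 to 0.59 for the other 10 probes. Its brain mean of -0.72 (adjusted p = 0.141, limma) had an interval of -1.44 to -0.0060 and its liver mean of 0.08 one of -0.64 to 0.79. Ftl1 had a brain mean of -0.35 ± 0.43 (SD, n = 3, adjusted p = 0.182) and a liver mean of 0.26 ± 0.36 (adjusted p = 0.314). With medians removed Ftl1 in liver stood at 0.48 ± 0.33, above 0 on all 3 arrays and still not called (adjusted p = 0.0926, limma). Without brain replicate 3, Ftl1 in brain was called lower at -0.60 (adjusted p = 0.0339). Ferritin genes have many processed copies in the mouse genome, and the ratios of these probes are uncertain to that extent.

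Slc40a1, the exporter ferroportin, was lower in SJL/J liver and brain and not called in kidney. It read -0.95, -0.51 and -0.39 in liver, -0.35, -1.13 and -0.16 in brain and 0.19, 0.19 and -0.03 in kidney. All 6 liver and brain values were below the lowest kidney value. The liver mean was -0.61 ± 0.29 (SD, n = 3, adjusted p = 0.0257, limma), the brain mean -0.55 ± 0.52 (adjusted p = 0.0475) and the kidney mean 0.12 ± 0.13 (adjusted p = 0.651). The liver call was lost without any one of the liver arrays, at -0.45 (adjusted p = 0.174) without replicate 1, -0.67 (adjusted p = 0.0721) without replicate 2 and -0.73 (adjusted p = 0.0530) without replicate 3. The brain call was lost under 12 of 19 settings, among them leaving out brain replicate 1 (-0.65, adjusted p = 0.0796), brain replicate 2 (-0.26, adjusted p = 0.307), any kidney array or liver replicates 2 or 3 (-0.55, adjusted p from 0.0590 to 0.0659), and with medians removed (-0.45, adjusted p = 0.0738).

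Cp encodes ceruloplasmin, the plasma ferroxidase that readies exported iron for transferrin, and it was slightly higher in SJL/J liver. The liver values were 0.32, 0.32 and 0.20, those of kidney 0.22, -0.02 and 0.14 and those of brain 0.01, -0.11 and 0.19. Liver was above 0 on all 3 arrays and overlapped kidney. Its liver mean of 0.28 ± 0.07 (SD, n = 3) was a 1.22-fold difference (adjusted p = 0.0471, limma), and kidney (0.12, adjusted p = 0.378) and brain (0.03, adjusted p = 0.855) were not called. The liver call was lost under 11 of 19 settings, including without any one liver array (0.26 to 0.32, adjusted p from 0.101 to 0.178), any one kidney array or brain replicate 1 (0.28, adjusted p from 0.0540 to 0.0670).

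Hamp, which encodes hepcidin and whose upstream sequence is printed above, gave no call in liver, its main site of expression, or elsewhere. The liver arrays read -0.89, 0.29 and -0.26, the brain arrays 0.26, -0.21 and -0.25 and the kidney arrays 0.02, 0.05 and -0.06. The liver arrays disagreed in sign, and the kidney arrays stayed within 0.06 of 0. The liver mean was -0.29 ± 0.59 (SD, n = 3, adjusted p = 0.282, limma) with an interval of -0.69 to 0.12, so a strain difference of Hamp was not detectable with these 3 arrays. Hamp2, a near-identical neighbour of Hamp in mice, may share signal with this probe, and which of the copies was read is uncertain.

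Hfe encodes a class I-like protein that binds transferrin receptor 1 and promotes hepcidin expression, and it was lower in SJL/J kidney and liver. It read -0.45, -0.69 and -0.76 in kidney, -0.63, -0.58 and -0.44 in liver and -0.16, 0.09 and 0.09 in brain. Kidney and liver overlapped each other and lay below all 3 brain values. The kidney mean was -0.64 ± 0.16 (SD, n = 3, adjusted p = 9.98e-04, limma), the liver mean -0.55 ± 0.10 (adjusted p = 0.00262) and the brain mean 0.0083 ± 0.15 (adjusted p = 0.963). The Hfe probe number is a multiple of 8, and of the 2880 probes at such numbers 50% were called lower in kidney and 30.1% in liver, against 14.5% and 12.4% of all probes. With medians of lines and positions removed, Hfe stood at -0.27 in kidney (adjusted p = 0.0986) and -0.19 in liver (adjusted p = 0.238), and neither was called.

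Hmox1, the inducible haem oxygenase that frees iron from haem, was higher in SJL/J liver and lower in SJL/J brain. It read 0.31, 0.67 and 0.58 in liver, -0.27, -0.44 and -0.72 in brain and -0.33, -0.21 and -0.26 in kidney. The liver values were all above 0 and the 6 others all below it. The liver mean was 0.52 ± 0.19 (SD, n = 3), a 1.43-fold difference (adjusted p = 0.00630, limma), the brain mean -0.48 ± 0.23 (adjusted p = 0.0124) and the kidney mean -0.27 ± 0.06 (adjusted p = 0.0891). The liver ratio ranged from 0.44 to 0.71 over the 19 other settings and was called in each. The brain call was lost without brain replicate 2 (-0.49, adjusted p = 0.0541), without brain replicate 3 (-0.35, adjusted p = 0.0503) and with medians removed (-0.36, adjusted p = 0.0814), and the kidney ratio was called without brain replicate 3 (-0.27, adjusted p = 0.0493). With each tissue fitted on its own arrays the brain call was also lost (adjusted p = 0.0962, limma), and the kidney ratio was called (adjusted p = 0.0408).

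The strain ratios of Slc11a2, Hmox1, Tfr2, Hfe and 1 of the Tfrc probes depended on the tissue. In a moderated F-test of the 3 tissues, 5 of the 11 probes were called, against 20% of all probes. With medians removed Hfe no longer passed this F-test (adjusted p = 0.0590). The other probes named here still did (adjusted p from 0.00605 to 0.0206), and 15.3% of all probes were called. Between liver and kidney 5 of 11 were called (18.5% of all probes), between liver and brain 3 of 11 (9.25%) and between brain and kidney 2 of 11 (5.27%). These differences share arrays, and the calls in one do not bear independently on the calls in another. A dye effect that a probe shows alike in 2 tissues cancels in their difference.

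Hmox1 was 0.79 higher in liver than in kidney on the log2 scale of the ratio (95% interval 0.45 to 1.12, adjusted p = 0.00741, limma) and 0.997 higher than in brain (0.66 to 1.33, adjusted p = 0.00367). Slc11a2 was lower in liver than in kidney by a difference of -0.87 (-1.22 to -0.52, adjusted p = 0.00577) and lower in brain than in kidney by -0.92 (-1.27 to -0.57, adjusted p = 0.0171). For Slc11a2 the liver and brain ratios were not called different, with an interval of -0.30 to 0.40. Both Hmox1 differences and the Slc11a2 difference between liver and kidney kept their calls under every alternative run. That of Slc11a2 between brain and kidney was lost without brain replicate 2 (-0.77, adjusted p = 0.0551), kidney replicate 2 (-0.89, adjusted p = 0.0573) or kidney replicate 3 (-0.87, adjusted p = 0.0558).

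Tfr2 stood 0.87 higher in liver than in kidney (0.38 to 1.35, adjusted p = 0.0234, limma), and this rested on the arrays: without kidney replicate 2, kidney replicate 3, liver replicate 1 or liver replicate 2 it was 0.75 to 0.87 with adjusted p from 0.0613 to 0.0819. Hfe was lower in liver than in brain by -0.56 (adjusted p = 0.0307) and 0.64 higher in brain than in kidney (adjusted p = 0.0303). Both Hfe differences were lost with medians removed, at -0.46 (adjusted p = 0.0918) and 0.53 (adjusted p = 0.0800). They were also lost without single arrays: the first without brain replicates 2 or 3 or any liver array (adjusted p from 0.0524 to 0.102), the second without brain replicate 2 or any kidney array (adjusted p from 0.0545 to 0.109).

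The Tfrc probes disagreed again. Probe 16166 was 2.20 higher in liver than in kidney (adjusted p = 1.08e-04), which was 0.01 with medians removed (adjusted p = 0.958), and 2.95 higher than in brain (adjusted p = 1.32e-05), which was 0.67 with medians removed (adjusted p = 0.0168). Its difference of -0.75 between brain and kidney missed the threshold (adjusted p = 0.0501, limma) and passed without brain replicate 3 (-0.92, adjusted p = 0.0140). Probe 4849 was lower in liver than in kidney by -0.72 (-1.18 to -0.25, adjusted p = 0.0402), a call lost without any one kidney array, liver replicate 1 or liver replicate 2 (-0.73 to -0.61, adjusted p from 0.0907 to 0.122). Slc40a1 differed by -0.73 between liver and kidney (adjusted p = 0.0618) and by -0.66 between brain and kidney (adjusted p = 0.130), and neither passed. Without brain replicate 3 both passed (adjusted p = 0.0366 and 0.0445), and without brain replicate 2 the first did (adjusted p = 0.0202). Ftl1 differed by 0.61 between liver and brain (adjusted p = 0.149) and passed without brain replicate 3 (0.85, adjusted p = 0.0391).

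**Figure D3:**
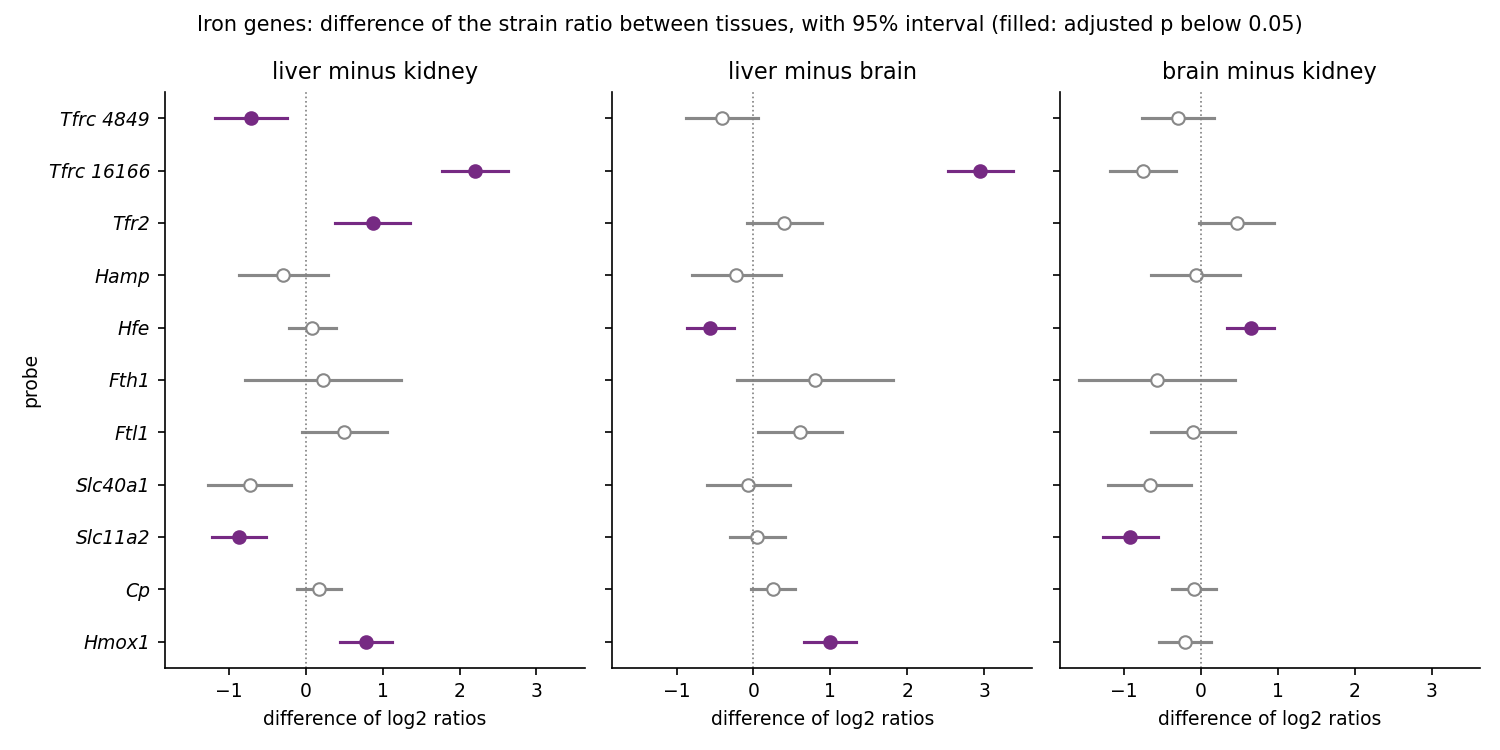
Difference in log2 strain ratio between tissues for each of the 11 probes, with 95% intervals from the fit, for liver minus kidney, liver minus brain and brain minus kidney. Hmox1 lies to the right of 0 in both liver contrasts, at 0.79 and 0.997, and Slc11a2 to the left in both contrasts with kidney, at -0.87 and -0.92.

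Of 23 calls on these probes, counting ratios within a tissue and differences between tissues, 7 held under every alternative run. These were the liver ratio of Tfrc probe 4849, the kidney ratio of Slc11a2, the liver ratio of Hmox1, both Hmox1 differences, the liver to kidney difference of Slc11a2, and the liver to brain difference of Tfrc probe 16166, whose size moved from 2.95 to 0.67 with medians removed.

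**Figure D4:**
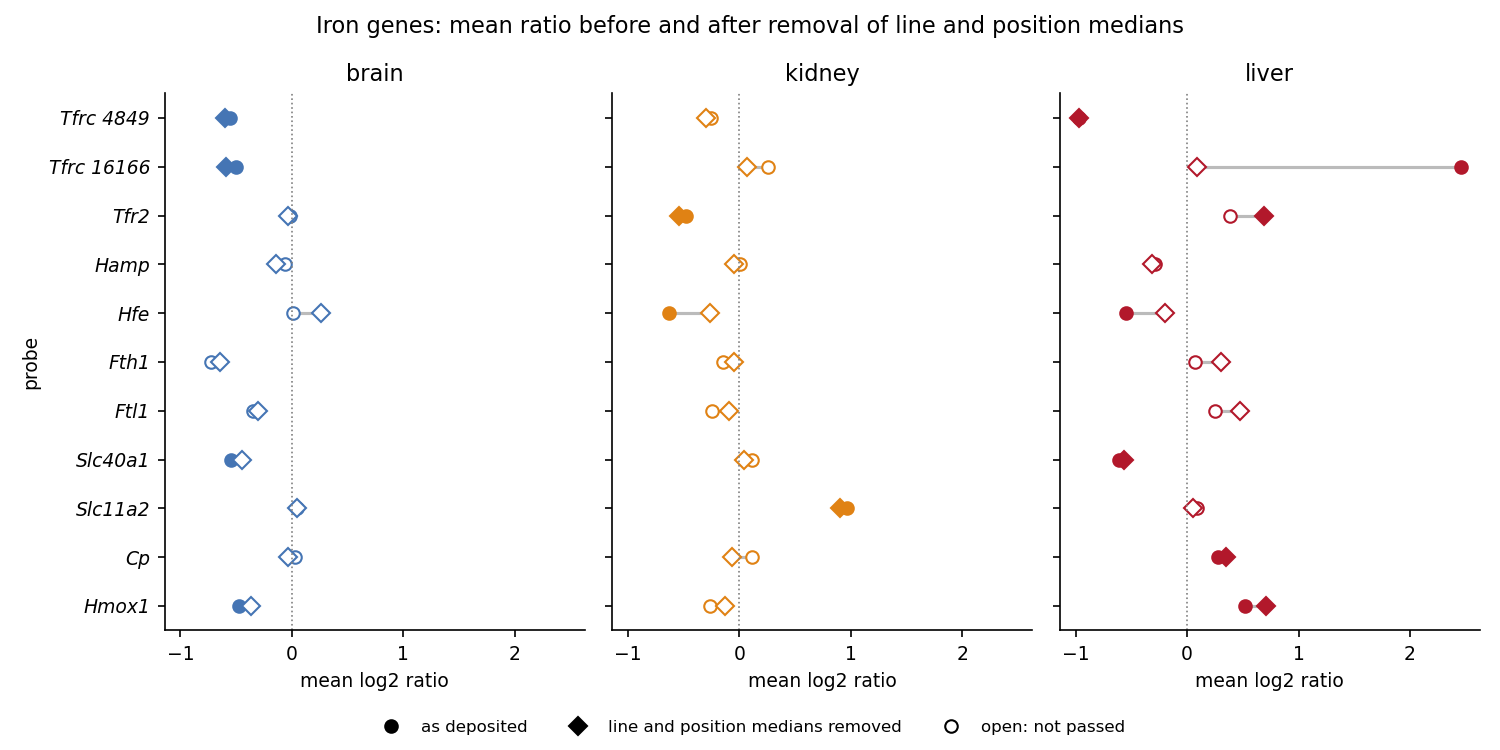
Mean log2 strain ratio of each probe in each tissue as deposited and with the medians of lines and positions removed, joined by a line. The largest shift is that of Tfrc probe 16166 in liver, from 2.45 to 0.08, and Hfe moves toward 0 in kidney and liver, from -0.64 to -0.27 and from -0.55 to -0.19.

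No iron gene had a strain ratio shared by the 3 tissues that passed the test. Here each tissue entered as 1 value, the mean of its arrays, so that the RNA pools of the tissues stood as replicates, and limma called 3.79% of all probes and 0 of these 11. Whether the pools of the 3 tissues came from the same mice is not known here. A dye effect alike in all 3 tissues would also count as a shared ratio. At an unadjusted p below 0.05 there was 1 of 11, Tfrc probe 4849, with a shared log2 ratio of -0.59 (adjusted p = 0.141, limma). Hfe came next at -0.39 (adjusted p = 0.275).

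For the 5 genes whose ratio depended on tissue, the genes with the most similar values over the 9 arrays were taken by the root mean square difference in log2 ratio, among 3338 other genes that also passed the F-test. Closest to the mean of the Tfrc probes was Trf, which encodes transferrin itself, at 0.169, with strain ratios of -0.31 (brain), -0.03 (kidney) and 0.78 (liver). The Tfrc mean in liver includes the raised line, and with medians removed the genes had opposite signs there, Tfrc at -0.44 and Trf at 0.90. Slc29a3 (0.135) and Poldip2 (0.143) were nearest to Tfr2, Rpgr (0.124) and Grasp (0.159) to Hfe, and Olfr13 (0.152) and Rhbg (0.162), an ammonia transporter gene, to Slc11a2. Rufy2 (0.165) and Kcna1 (0.174), a potassium channel gene, were nearest to Hmox1.

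The wider iron pathway was described through 7 lists, with each gene taken as the mean over its probes. Over all genes 7.55% were called higher and 9.61% lower in brain, 13.5% and 13.9% in kidney and 10.1% and 14.4% in liver, with medians of 0.01, 0.03 and -0.02. With medians of lines and positions removed these shares were 5.96% and 8.72%, 9.54% and 10.2%, and 8.99% and 11.5%. Among the 12 measured plasma carriers and haem or haemoglobin scavengers, 6 were higher and 0 lower in SJL/J liver by limma, also 0 lower at an unadjusted p below 0.05, with a median of 0.25, and the counts were 6 and 0 with medians removed. Lcn2, which binds the siderophores by which bacteria take iron, stood at 3.40 ± 0.52 (SD, n = 3), Hpx, the plasma haem binder, at 0.92 ± 0.36 and Trf at 0.78 ± 0.16. In brain 1 of the 12 was higher, Lcn2 at 1.22 ± 0.10, and 1 lower, Scara5, a ferritin receptor, at -0.54, and in kidney 1 was lower. Both lower calls were lost with medians removed.

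Of the 13 genes of iron transport, reduction and oxidation, 2 were higher and 2 lower in liver, 3 higher and 2 lower in kidney, and 2 lower in brain. With medians removed the counts were 1 and 3 in liver, 0 and 2 in kidney and 0 and 3 in brain. Abcg2, an exporter of haem and many other compounds, was lower in all 3 tissues, at -1.76 ± 0.12 (SD, n = 3) in brain, -1.34 ± 0.27 in kidney and -0.63 ± 0.30 in liver. Its probe number is a multiple of 8, and with medians removed it was still called in each, at -1.50, -1.15 and -0.45. Steap4, a metalloreductase, stood at 1.18 ± 0.23 in liver, and Heph, the ceruloplasmin-like ferroxidase hephaestin, at -0.91 ± 0.31, or -0.49 with medians removed. Steap3, the reductase that prepares endosomal iron for DMT1, was at -0.82 ± 0.17 in brain. In kidney Cybrd1, a ferric reductase, at -0.35 and Steap4 at 0.34 were called, and neither was with medians removed (adjusted p = 0.0774 and 0.109, limma).

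Of the 8 iron regulatory and intracellular handling genes, 1 was higher and 1 lower in liver and in kidney. In liver these were Epas1, which encodes a hypoxia-inducible factor, at 0.45 and Pcbp1, an iron chaperone gene, at -0.51, or -0.28 with medians removed (adjusted p = 0.0494, limma). In kidney Hif1a stood at -0.46, at a multiple of 8, and at -0.07 with medians removed (adjusted p = 0.768).

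Of the genes that control hepcidin through BMP signalling, 1 of 20 was higher and 4 lower in liver, 2 higher and 4 lower in kidney, and 2 lower in brain. With medians removed the counts were 1 and 4 in liver, 2 and 2 in kidney and 1 lower in brain. Bmp6, a BMP that raises hepcidin, stood at -1.90 ± 0.19 (SD, n = 3) in kidney and -1.25 ± 0.60 in brain, and was not called in liver (0.17, adjusted p = 0.537, limma). Acvr1, a BMP type I receptor gene, was lower in all 3 tissues, at -0.53 in brain, -0.85 in kidney and -0.90 in liver. Both probes have numbers that are multiples of 8. With medians removed Bmp6 was still called, at -1.44 in kidney (adjusted p = 9.28e-04) and -0.96 in brain (adjusted p = 0.00988), and Acvr1 was called in kidney (-0.42, adjusted p = 0.0124) and liver (-0.66, adjusted p = 8.25e-04) and not in brain (-0.25, adjusted p = 0.103). Also called were Smad1, a transducer of BMP signals, at 1.02 ± 0.33 in liver, Id2, of a family of BMP targets, at -0.89 ± 0.44 in liver and Id1, of the same family, at 0.94 ± 0.57 in kidney.

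Of the 10 genes of the IL-6 branch, 3 were higher and 2 lower in liver, 1 higher and 2 lower in kidney and 1 higher and 1 lower in brain. With medians removed there were 3 and 1 in liver, 0 and 0 in kidney and 2 and 1 in brain. Il6ra, the IL-6 receptor chain, was higher in all 3 tissues, at 2.52 ± 0.60 (SD, n = 3) in brain, 0.82 ± 0.32 in kidney and 0.98 ± 0.81 in liver. Socs3, a target and brake of the pathway, stood at 0.79 ± 0.10 in liver, and Jak2, a kinase of the pathway, at -0.62 ± 0.40. All 3 kidney calls were lost with medians removed: Il6ra moved to 0.67 (adjusted p = 0.120, limma), Il6 from -0.65 to -0.30 (adjusted p = 0.0605) and Socs3 from -0.42 to 0.0073 (adjusted p = 0.964), and the probe numbers of Il6 and Socs3 are multiples of 8.

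Haem synthesis and breakdown had 3 of 11 genes lower and 0 higher in SJL/J liver by limma, with 2 higher at an unadjusted p below 0.05, and 1 higher in brain. With medians removed the liver counts were 2 higher and 2 lower and the brain count 3 higher. Alas2, the erythroid enzyme of the first step of haem synthesis, stood at -1.96 ± 0.35 (SD, n = 3) in liver and 0.79 ± 0.38 in brain. Blvrb, a biliverdin reductase, was at -0.71 ± 0.29 in liver, and Alas1, the housekeeping partner of Alas2, at -0.42 ± 0.16, a call lost with medians removed (-0.21, adjusted p = 0.167).

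Of the 16 genes of mitochondrial iron import and iron-sulfur cluster assembly, 3 were higher and 2 lower in kidney, 1 higher and 2 lower in brain and 2 lower in liver. With medians removed 1 was lower in kidney, 2 in brain and 1 in liver, and 0 were higher in any tissue by limma. Nfu1, an iron-sulfur scaffold gene, stood at -0.92 ± 0.40 (SD, n = 3) in brain and -0.73 ± 0.11 in kidney, and was called in both with medians removed (-1.02 and -0.79). Hspa9 (-0.64) and Bola3 (-0.36), both at multiples of 8, were the lower genes in liver, and neither was called with medians removed.

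**Figure D5:**
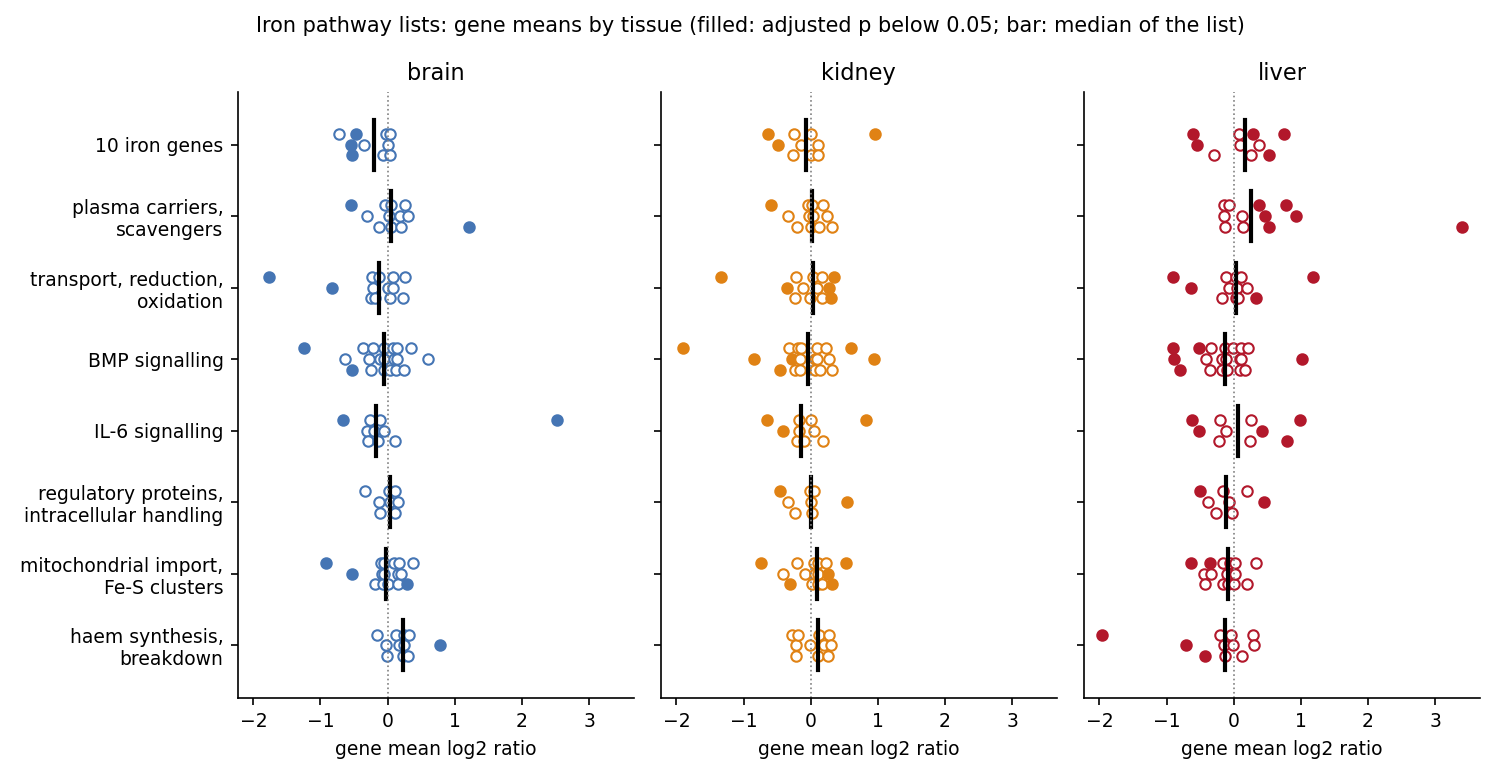
Gene mean log2 strain ratio of the genes in the iron lists by tissue, 1 point per gene, with a bar at the median of each list and a dotted line at 0. Plasma carriers and scavengers lie highest in liver, with a median of 0.25 against -0.02 over all genes, and Lcn2 at 3.40 is their highest point.

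Some marker lists of cells in these tissues held more calls than all genes did, and others did not. In liver 10.1% of all genes were called higher and 14.4% lower, or 24.5% either way. The share called either way there was 70% of hepatocyte, 31.2% of macrophage and 38.5% of erythroid markers. Hepatocyte markers had 10 of 20 higher and 4 lower in liver, a median of 0.48, with Tdo2 at -1.69, Mup3 at 1.42 and Serpina1a at 1.14. In liver 4 of 16 macrophage markers were higher and 1 lower (median 0.19), beside the higher Hmox1 and the lower Slc40a1, both known as macrophage genes of iron recycling. The marker with the largest called ratio there was the lower one, Mrc1 at -0.68, followed by Cd5l at 0.51 and C1qb at 0.49. Mrc1, whose probe number is a multiple of 8, was also lower in kidney (-0.86) and brain (-0.80), and in liver its call was lost with medians removed (-0.49, adjusted p = 0.0633, limma). With medians removed 6 of the 16 macrophage markers were higher in liver and 0 lower, beside 8.99% and 11.5% of all genes. Erythroid markers had 3 of 13 higher and 2 lower in liver, the lower count near the share of all genes, with Alas2 at -1.96 and Hba-a1 at 0.83. In kidney 1 of 13 proximal tubule markers was higher and 1 lower, beside the higher Slc11a2, shares below the 13.5% and 13.9% of all genes. Macrophage markers held more calls there, with 4 of 16 higher and 4 lower. That was 50% called either way, against 27.4% of all genes. With medians removed 2 were higher and 4 lower. In brain, beside the lower Tfrc, Slc40a1 and Hmox1, 3 of 12 oligodendrocyte markers were lower, with Mog at -0.97, against 9.61% of all genes. The other 9 were not called, and the median of this list in brain was 0.015, beside 0.0062 over all genes. The lower calls of this list were not particular to brain: in liver 4 of the 12 were lower and 0 higher, with a median of -0.30. Olig1 stood at -0.74 in liver and -0.68 in brain. In brain 1 of 11 astrocyte markers and 2 of 16 macrophage and microglia markers were lower, and 1 of the latter higher, which is near the shares of all genes. Choroid plexus markers gave 0 calls of 7 in brain by limma, also 0 at an unadjusted p below 0.05. The part of such differences in the ratios of the iron genes was not tested.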

How the data were processed

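Total RNA of brain, kidney and liver was compared between pools of SJL/J and C57BL/6J mice on 9 arrays of 23040 spots. The table deposited by the authors holds 1 log ratio per spot and array, taken as log2. Per the submitters' processing notes the authors used R 2.0.0 and limma. How background was corrected and which genome build was used is not stated in the sources used here. Sorting each of the 9 columns gave the same values, so the distributions had been equalised before deposit. Spot brightness was not analysed here.

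Probes were named through the platform annotation: 16874 had a single gene symbol, 134 had several and 6032 were unnamed here. Of them 16196 matched the RefSeq table of GRCm38.p6, which changed 0 symbols. All probes were fitted with lmFit and eBayes (limma 3.58.1, R 4.3.3) with 1 coefficient per tissue (6 residual and 4.24 prior degrees of freedom), and p-values were two-sided and adjusted by Benjamini and Hochberg at a threshold of 0.05. Genes were the means of their probes. The script was tested on simulated data.

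Every iron probe is given. From the other lists, genes were named out of at most 3 per list and tissue, those with the largest ratio among called genes, though not each of them is named, and uncalled liver Bmp6 was added after its value was seen. For each tissue-dependent gene its 3 nearest genes were taken. The members and lists were chosen with earlier results of these data known. Replicate numbers did not pair the arrays: residuals of same-numbered arrays correlated at -0.085 to 0.051. Alternatives were a replicate block, removal of medians of lines of 24 probe numbers and of positions, leaving out probe numbers that are multiples of 8, single-symbol probes, separate fits per tissue, array weights, a robust prior, gene means, a threshold of 0.01 and leaving out each array.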

Additional observations from a re-analysis of the deposited data

Results flagged for a closer look

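These are strain ratios that differed between tissues by a test of the difference itself, on the log2 scale and by limma. Between liver and kidney the differences were 0.79 for Hmox1, -0.87 for Slc11a2, 0.87 for Tfr2, -0.72 for Tfrc probe 4849 and 2.20 for Tfrc probe 16166. Between liver and brain they were 0.997 for Hmox1, -0.56 for Hfe and 2.95 for Tfrc probe 16166. Between brain and kidney they were 0.64 for Hfe and -0.92 for Slc11a2. As deposited, the 2 Tfrc probes took opposite signs between liver and kidney. With medians of lines and positions removed, that difference of probe 16166 was 0.01 (adjusted p = 0.958, limma). Its difference between liver and brain was then 0.67. Neither Hfe difference was called with medians removed, at -0.46 (adjusted p = 0.0918) and 0.53 (adjusted p = 0.0800). Single values were not searched for outlying arrays, since each tissue has 3. Over all probes, brain replicate 3 correlated less with the other brain arrays (0.522 and 0.570) than with the kidney arrays (0.584 to 0.627).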

How the results depend on the processing

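No ratio or difference of an iron probe that was called changed its sign under any of the alternatives run, whereas the mean of the Tfrc probes did in liver with medians removed. Of the 23 calls, 16 were lost under at least 1 alternative. The count of genes that differed between brain and kidney was 2, and it was 1 with the replicate block, 1 without multiples of 8, 4 with array weights and 0 at a threshold of 0.01. Of all probes fitted 5.27% differed there, and 2.55%, 4.65%, 15.5% and 0.417% under those settings in turn. The count lower in brain was 3, and it was 1 with medians removed, where 8.85% of all probes were lower in brain. It was 0 with each tissue fitted on its own arrays, where 2.97% were, and 0 at a threshold of 0.01, where 4.38% were. The count lower in kidney was 2, and it was 1 with medians removed, 1 without multiples of 8 and 1 at a threshold of 0.01. Of all probes fitted 14.5% were lower in kidney, and 10.8%, 8.97% and 8.03% under those settings in turn. The count was also 1, and the share 9.2%, without multiples of 8 and with line medians removed, an alternative chosen after seeing the data. The count with a tissue-dependent ratio was 5, beside 20% of all probes, and 3 at a threshold of 0.01, beside 5.85%. Leaving out each array in turn gave 0 to 4 genes for brain against kidney, beside 0.794% to 14% of all probes. Both the 4 and the 14% came without brain replicate 3. For liver against kidney there were 3 to 5 (9.67% to 24.8%), for liver against brain 2 to 3 (4.78% to 10.4%) and by the F-test 4 to 7 (11% to 29%). Lower in brain were 1 to 3 (5.13% to 10.5%) and lower in kidney 1 to 3 (8.37% to 16.9%). Higher in kidney was 1 (8.36% to 17.4%), and liver had 2 to 3 each way (7.32% to 15.2% higher and 6.89% to 15.2% lower). The replicate block paired arrays that share only a number, and 1 of 9 arrays matched best with its own number. Fits without 1 array assume that the arrays left vary like the others. Replicates were technical, dyes were not swapped, and without intensities dim spots could not be set aside.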
